A study of Mus musculus with 6 samples.

Results

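The genes described here are 9 chains of cytokine receptors other than the interleukin-2 receptor (Il7r, Il6ra, Il6st, Il4ra, Il21r, Il10ra, Il27ra, Ifngr1 and Il17ra) and Socs3, an intracellular inhibitor that cytokines induce. They were taken by gene symbol, and all 10 had an entry among the 23282 of each library. Regulatory T cells (Treg), CD4 T cells that hold immune responses in check, were sorted from spleens of C57BL/6 mice and not stimulated. There were 3 libraries labelled IPMK cKO, a conditional knockout of inositol polyphosphate multikinase, a kinase that phosphorylates inositol phosphates. They were compared with 3 libraries labelled wild type. The labels give no allele, no Cre driver, no age and no word on pooling of animals. Libraries were described as biological replicates with no animal named, so p-values measure the spread between these libraries, which may be technical.

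Most of these receptors belong to class I or class II of the cytokine receptors. A ligand brings a private chain together with a shared chain, JAK kinases bound to the chains are activated, and STAT transcription factors are phosphorylated. Interleukin-7, interleukin-4 and interleukin-21 share the common gamma chain Il2rg, while interleukin-6 and interleukin-27 share Il6st (gp130). Interleukin-10 pairs Il10ra with Il10rb, and interferon gamma pairs Ifngr1 with Ifngr2. Il17ra belongs to a separate family that signals through the adaptor Act1 and TRAF proteins. Socs3 binds phosphorylated gp130 and restrains STAT3. In T cells Il7r and Il6ra are known as genes of resting cells that are lowered on activation, and Treg are known for low Il7r relative to conventional CD4 T cells.

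Libraries held between 7464546 and 8980395 counts. The ribosomal RNA entry Rn45s took 31.3%, 32.1% and 19.9% of them in IPMK cKO replicates 1 to 3. Its share was 21%, 31.7% and 16.75% in wild type replicates 1 to 3. Counts outside Rn45s ran from 5287300 to 7130660. A single count was worth 0.101 to 0.141 CPM (counts scaled to a common library size). Library sizes were scaled by TMM, the trimmed mean of M values. The targeted gene Ipmk had 0.422, 2.74 and 0 CPM in IPMK cKO replicates 1 to 3, against 15.5, 10.5 and 10.3 CPM in wild type replicates 1 to 3. It was thus lower in each IPMK cKO library. The libraries carry 3′ tags, and the labels do not say which part of the gene was deleted, so this is a check of transcript abundance. Each of 4 T cell and 5 Treg markers was counted in every library. Summed CPM of the 4 T cell genes was 1096 to 1659 in IPMK cKO and 1345 to 1389 in wild type, and that of 5 Treg genes, with Ikzf2 the most abundant, was 1577 to 2101 in IPMK cKO and 1577 to 2467 in wild type. The Treg genes did not move together. Foxp3, which defines the lineage, had 85.1, 72.0 and 82.3 CPM in IPMK cKO, against 10.4, 80.6 and 29.0 CPM in wild type (log2 fold change 1.0, SE 0.61), so the groups overlapped and wild type replicates 1 and 3 were the lowest. Tnfrsf18 was higher in every IPMK cKO library (0.63, SE 0.29), while Ikzf2 had -0.45 (SE 0.32), Ctla4 -0.18 and Il2ra 0.11. A separation like that of Tnfrsf18 was seen in 4.74% of all genes. None of the 5 Treg genes was called, and the part of their differences in the receptor results was not tested. Markers of other cells summed to less than the T cell or Treg genes in each library. Sums of 5 B cell genes were 7.10 to 13.1 CPM in IPMK cKO and 5.47 to 14.2 CPM in wild type. Those of 10 myeloid genes were 0 to 26.4 and 0.602 to 18.9 CPM, and of 5 erythroid genes 0 to 16.7 and 0.120 to 56.3 CPM. For 5 genes of NK cells the sums were 13.7 to 51.8 and 21.5 to 28.4 CPM, and for 2 genes of CD8 T cells 2.11 to 8.62 and 7.82 to 12.2 CPM. The most abundant of these genes was Nkg7 for NK cells (at most 51.8 CPM in IPMK cKO and 28.4 CPM in wild type), Hba-a1 for erythroid cells (at most 7.45 CPM in IPMK cKO and 45.5 CPM in wild type), Cd79b for B cells (at most 13.1 and 14.2 CPM) and Tyrobp for myeloid cells (at most 12.2 and 10.7 CPM). Pax5, Cd8a, Ncr1, Adgre1 and Cd14 had no count in any library. Other genes of these lists were counted: Cd8b1 had 15 to 95 counts in each library. Cd79a had at most 57 counts (IPMK cKO replicate 1) and Itgam at most 62 (IPMK cKO replicate 3). In wild type replicate 1 the sums of NK and B cell genes (23.9 and 14.2 CPM) were above Foxp3 (10.4 CPM). The part of other cells in the receptor values was not tested.

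IPMK cKO replicate 1 stood apart from the other libraries. In it 51.4% of the genes tested lay more than 1 log2 unit away from the other 5 libraries (their median). The other libraries had such a distance for 18.7% to 32.1% of genes. Of the 10 genes described here, 6 lay that far away in this library, a share close to that of all genes. The estimate of each of the 10 genes is therefore also given without it.

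Of the 10 genes, 7 matched a RefSeq promoter (build GRCm38.p6, equivalent to mm10). The 250 bases before the RefSeq start of 3 of them are shown, and distances are counted from that start. Il7r and Il6ra were taken as the receptors of resting T cells and Socs3 as the STAT target among the 10. In GENCODE M21 the gene extends to 9530176 for Il7r and to 117970047 for Socs3, so both of these windows lie inside the annotated gene. For Il6ra both annotations give the same start. Capitals mark matches, on either strand, to TTCNNNGAA (the palindromic core that STAT factors bind) or CAGGAAGT (an element of ETS factors).
Il7r, chr15:9529877-9530126, minus strand: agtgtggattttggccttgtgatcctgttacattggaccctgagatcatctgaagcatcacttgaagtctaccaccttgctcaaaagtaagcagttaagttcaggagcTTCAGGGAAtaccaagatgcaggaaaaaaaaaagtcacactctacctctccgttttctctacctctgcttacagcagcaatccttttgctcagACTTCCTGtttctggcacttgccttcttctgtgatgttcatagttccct
Il6ra, chr3:89913197-89913446, minus strand: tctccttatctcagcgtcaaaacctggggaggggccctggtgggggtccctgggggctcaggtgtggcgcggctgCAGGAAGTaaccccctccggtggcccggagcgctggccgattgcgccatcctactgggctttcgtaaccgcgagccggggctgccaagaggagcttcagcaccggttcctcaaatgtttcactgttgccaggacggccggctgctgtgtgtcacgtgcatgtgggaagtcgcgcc
Socs3, chr11:117969367-117969616, minus strand: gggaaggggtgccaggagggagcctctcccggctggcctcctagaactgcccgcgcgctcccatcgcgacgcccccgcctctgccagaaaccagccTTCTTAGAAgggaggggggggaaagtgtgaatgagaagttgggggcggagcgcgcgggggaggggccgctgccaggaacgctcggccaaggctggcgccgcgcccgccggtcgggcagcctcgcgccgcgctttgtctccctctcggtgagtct

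The ETS letters stood 49 to 42 bases before the start of Il7r on the opposite strand and 175 to 168 bases before that of Il6ra. They were in 2.69% of 32851 promoter windows of this length. The STAT letters stood at 154 to 146 bases in Socs3 and at 142 to 134 bases in Il7r, and were in 7.02% of windows. A forkhead element, TGTTTAC, was in 3.17% of windows and a RUNX element, TGTGGT, in 14.0%; of the 7 genes Il21r held both, and their matches overlap. The motifs were chosen with the sequences in view. These are matches of letters and not evidence of binding.

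All 10 genes had enough counts to be tested. None passed edgeR's quasi-likelihood test (each adjusted p = 0.9999), nor did any of the 10475 genes tested, a background of 0%. DESeq2 called none of the 10 and 3 of all genes (0.0288%), and limma-voom called 0 genes. With p left unadjusted, 2 of the 10, Il17ra and Il6ra, were under 0.05 and higher in IPMK cKO, beside 1.37% of all genes (143), and none was under 0.05 and lower, beside 1.19% (125). In Il17ra and Il6ra the 3 IPMK cKO libraries also lay above all 3 wild type libraries, a separation seen in 4.74% of all genes. None of the 10 was separated the other way, beside 5.66% of all genes. Their median log2 fold change (IPMK cKO over wild type) was 0.04, beside 0.03 for all genes. The 10 genes were chosen with earlier results of these data known, so these counts are not independent support.

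**Figure D1:**
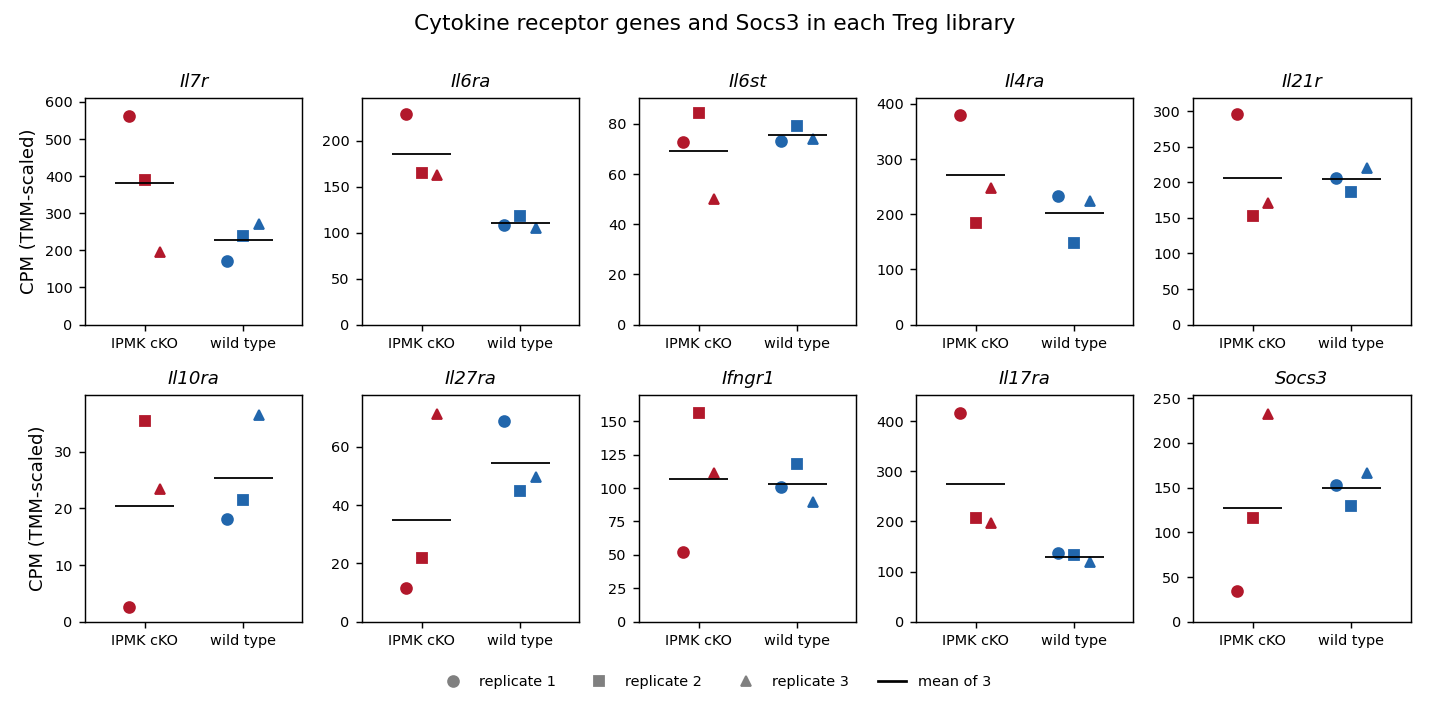
Level of each of the 10 genes in CPM (linear axis from 0) in the 3 IPMK cKO libraries and the 3 wild type libraries, with symbols for the replicate and a line for the mean. Il6ra and Il17ra show no overlap between the groups, and replicate 1 of IPMK cKO is the highest or lowest library for 9 of the 10 genes.

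Il17ra, the signalling chain shared by receptors of the interleukin-17 family, had the smallest p of the 10. Its levels were 416, 208 and 198 CPM in IPMK cKO replicates 1 to 3, against 137, 133 and 119 CPM in wild type. The lowest IPMK cKO library was above the highest wild type library, and the wild type values lay close together (130 ± 9.17 CPM, SD, n = 3). The log2 fold change was 1.08 (SE 0.34, 95% interval 0.32 to 1.83, unadjusted for the number of genes). It ranked 27 by p among all genes tested by edgeR, with an adjusted p of 0.9999. The exact permutation test gave p = 0.1, the smallest possible with 3 against 3 libraries (two-sided). Without IPMK cKO replicate 1 the estimate was 0.64 (SE 0.24). The groups did not overlap there either, but apart from rescaling, leaving out a library cannot undo a separation. Il17ra (ENSMUSG00000002897) lies on chromosome 6, 120463247 to 120487559, plus strand, on mm10 in GENCODE M21, and no other annotated gene overlaps it.

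Partner chains of Il17ra were nearly absent. Il17rc, which completes the receptor for interleukin-17A, had 0 counts in each IPMK cKO library and 66, 0 and 0 counts in wild type replicates 1 to 3. Il17rb, the partner for interleukin-25, had 0, 33 and 0 counts in IPMK cKO and none in wild type. Il17rd and Il17re had no count, which allows up to 0.304 to 0.422 CPM in a library (3 counts, counting error only). Of 10 tested genes of signalling below the receptor, 0 were called. Estimates were above 0 for 3 and below for 7, and the median log2 fold change was -0.19. Without IPMK cKO replicate 1 they were above 0 for 5 and below for 5, with a median of -0.01. Nfkbiz, an inducible nuclear member of the IκB family, was higher in every IPMK cKO library: 220, 128 and 148 CPM, against 122, 84.5 and 80.2 CPM in wild type (0.79, SE 0.33; 0.52 without IPMK cKO replicate 1). Separation in this direction was seen in 4.74% of all genes. The adaptor Traf5 had -0.75 (SE 0.67), the RNase Zc3h12a -0.58 (SE 0.54) and the RNA-binding protein Elavl1 -0.55 (SE 0.55), with overlapping groups.

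The chains of the interleukin-6 receptor differed in pattern: the groups were separated for the private chain and overlapped for the shared chain. Il6ra, which binds interleukin-6, had 229, 165 and 162 CPM in IPMK cKO replicates 1 to 3, against 108, 118 and 105 CPM in wild type. Each IPMK cKO library was above each wild type library. The log2 fold change was 0.75 (SE 0.29, 95% interval 0.11 to 1.38), with an edgeR adjusted p of 0.9999 and an exact permutation p of 0.1. It was 0.56 (SE 0.25) without IPMK cKO replicate 1, and between 0.53 and 0.83 over 17 alternatives. Il6ra (ENSMUSG00000027947; chromosome 3, 89864059 to 89913196, minus strand) is overlapped by the antisense gene Gm42809. The strand setting of the counting is not stated, and whether any counted reads of the pair were shared was not tested.

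Il6st, the gp130 chain that carries the signal, had 72.8, 84.4 and 50.2 CPM in IPMK cKO, against 73.3, 79.1 and 74.1 CPM in wild type. The wild type libraries lay within the range of the IPMK cKO libraries. Its estimate was -0.13 (SE 0.34, 95% interval -0.88 to 0.63), an interval that admits changes of either sign, and -0.17 without IPMK cKO replicate 1. The count ratio of Il6ra to Il6st within a library, which needs no scaling between libraries, was 3.15, 1.96 and 3.23 in IPMK cKO and 1.48, 1.496 and 1.42 in wild type. The IPMK cKO ratios were all higher, with a mean difference of 0.89 on the log2 scale (exact permutation p = 0.1, adjusted p = 0.267 over 8 chain ratios compared). Other partners of gp130 were nearly silent: Lifr and Cntfr had no count and Osmr had 1 count in all. Adam17, the protease that sheds the interleukin-6 receptor from the cell surface, was lower in every IPMK cKO library: 59.9, 63.8 and 62.1 CPM, against 88.4, 112 and 138 CPM in wild type (-0.86, SE 0.32; -0.84 without IPMK cKO replicate 1; edgeR adjusted p = 0.9999). Separation in this direction was seen in 5.66% of all genes. The related sheddase Adam10 had an estimate of 0.01 (SE 0.37).

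**Figure D2:**
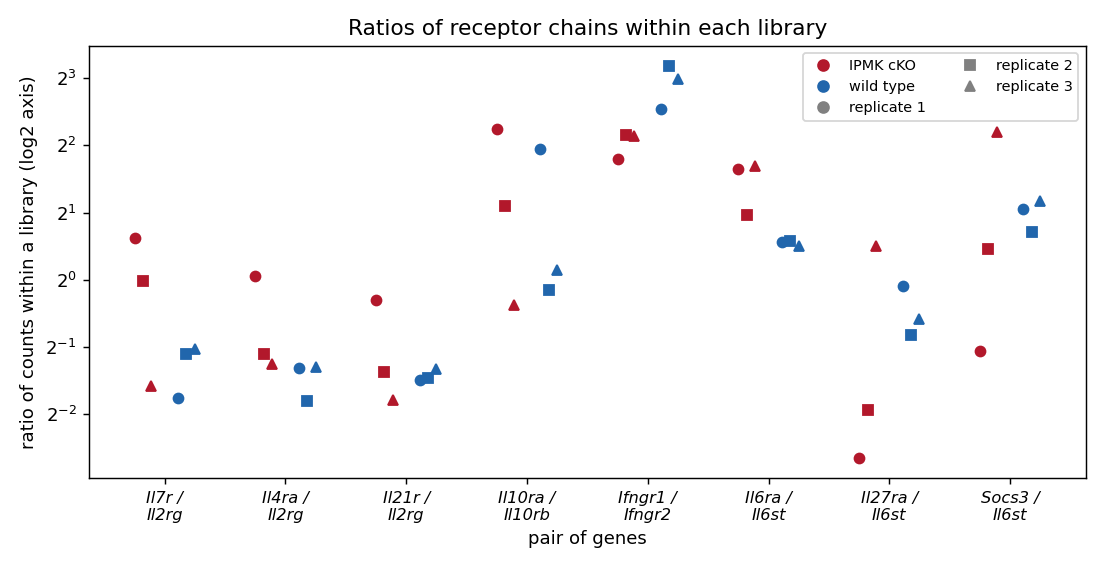
Ratio of counts of 2 genes within each library, on a log2 axis, for 8 pairs of genes in the 3 IPMK cKO and the 3 wild type libraries. The ratio of Il6ra to Il6st is 1.96 to 3.23 in IPMK cKO and 1.42 to 1.496 in wild type, and that of Ifngr1 to Ifngr2 lies lower in each IPMK cKO library.

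Il7r, the private chain of the interleukin-7 receptor that sustains resting T cells, was the most abundant of the 10 by mean tag count in each group. It had 563, 388 and 196 CPM in IPMK cKO replicates 1 to 3, against 171, 239 and 271 CPM in wild type. Replicates 1 and 2 of IPMK cKO were above every wild type library and replicate 3 lay inside the wild type range. The log2 fold change was 0.75 (SE 0.38, 95% interval -0.08 to 1.59). It was 0.36 (SE 0.31) without IPMK cKO replicate 1 and 1.07 without replicate 3. In the latter fit Il7r also separated the groups, beside 10.9% of all genes. The ratio of Il7r to its partner Il2rg was 1.54, 0.986 and 0.334 in IPMK cKO and 0.296, 0.465 and 0.490 in wild type, so the groups overlapped (exact permutation p = 0.3).

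Among factors known to act on Il7r, 6 were tested and 0 were called. Foxp1, which opposes FOXO1 at this gene, was higher in every IPMK cKO library: 1135, 899 and 1004 CPM, against 654, 779 and 657 CPM in wild type (0.54, SE 0.25). Ets1 was also higher in each, with 991, 924 and 930 CPM in IPMK cKO and 815, 889 and 798 CPM in wild type (0.19, SE 0.24). Foxo1 itself had overlapping groups (0.17, SE 0.25), as had the repressor Gfi1 (-0.79, SE 0.86). Separation of this kind was seen in 4.74% of all genes, and in 9.45% without IPMK cKO replicate 1. Both separated genes also did so without that library, but apart from rescaling, leaving out a library cannot undo a separation.

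The private chains of the interleukin-4 and interleukin-21 receptors did not separate the groups. Il4ra had 380, 184 and 247 CPM in IPMK cKO, against 233, 148 and 224 CPM in wild type, an estimate of 0.42 (SE 0.34, 95% interval -0.32 to 1.17). The estimate was 0.09 without IPMK cKO replicate 1. Il21r had 297, 153 and 171 CPM in IPMK cKO, against 206, 187 and 220 CPM in wild type. Replicate 1 of IPMK cKO was the highest of the 6 libraries and replicates 2 and 3 were the lowest. The estimate was 0.02 (SE 0.32) with all libraries, -0.34 (SE 0.24) without IPMK cKO replicate 1, and below 0 with total-count or upper quartile scaling. Relative to Il2rg, Il4ra was 1.04, 0.468 and 0.420 in IPMK cKO and 0.402, 0.288 and 0.406 in wild type, each IPMK cKO ratio above each wild type ratio (log2 difference 0.71, exact permutation p = 0.1, adjusted p = 0.267). The margin between the groups was 0.420 against 0.406. Il2rg had 366, 394 and 587 CPM in IPMK cKO and 578, 513 and 553 CPM in wild type (-0.29, SE 0.27).

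Ifngr1, the ligand-binding chain of the interferon gamma receptor, had 52.5, 156 and 111 CPM in IPMK cKO, against 101, 118 and 89.7 CPM in wild type. Replicate 1 of IPMK cKO lay below the wild type range, replicate 2 above it and replicate 3 inside it. Its estimate was 0.05 (SE 0.40, 95% interval -0.82 to 0.93), and it was 0.38 without IPMK cKO replicate 1. Under total-count scaling it was -0.09. The partner Ifngr2 was at 15.1, 35.3 and 25.3 CPM in IPMK cKO and 17.2, 13.0 and 11.3 CPM in wild type (0.86, SE 0.65). The ratio of Ifngr1 to Ifngr2 was 3.49, 4.43 and 4.41 in IPMK cKO and 5.84, 9.11 and 7.91 in wild type. All IPMK cKO ratios were lower (log2 difference -0.88, exact permutation p = 0.1, adjusted p = 0.267).

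Receptors of the anti-inflammatory cytokines interleukin-10 and interleukin-27 varied widely between libraries. Il10ra had 2.67, 35.4 and 23.3 CPM in IPMK cKO, against 18.1, 21.5 and 36.4 CPM in wild type. Replicate 1 of IPMK cKO, with 19 counts, was far below all other libraries, and the other 2 lay within the wild type range. The log2 fold change was -0.31 (SE 0.82, 95% interval -2.12 to 1.51) and 0.21 without that library. Its partner Il10rb was also low there, at 0.563, 16.6 and 30.1 CPM in IPMK cKO and 4.69, 23.9 and 33.1 CPM in wild type, and both replicates numbered 1 were the lowest of their group. Il27ra had 11.5, 21.95 and 71.1 CPM in IPMK cKO, against 68.9, 45.0 and 49.5 CPM in wild type. Replicates 1 and 2 of IPMK cKO were below every wild type library and replicate 3 was above each. Its estimate was -0.64 (SE 0.62, 95% interval -2.0 to 0.72). It was -0.23 without IPMK cKO replicate 1, -0.41 without IPMK cKO replicate 2, -1.70 without IPMK cKO replicate 3 and -0.02 with both libraries numbered 1 left out. Palm3 overlaps Il27ra on the opposite strand, as Gm44876 overlaps Il4ra and Gm20612 overlaps Il10ra. Whether any counted reads were shared was not tested.

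Socs3 had 34.9, 116 and 232 CPM in IPMK cKO, against 153, 129 and 166 CPM in wild type. The IPMK cKO libraries spanned a 6.64-fold range and the wild type libraries a 1.28-fold range. The log2 fold change was -0.22 (SE 0.53, 95% interval -1.39 to 0.94), 0.22 without IPMK cKO replicate 1 and -0.98 without replicate 3. Socs2, an inhibitor induced through STAT5, was lower in every IPMK cKO library: 41.7, 64.2 and 40.4 CPM, against 76.2, 99.4 and 106 CPM in wild type (-0.95, SE 0.36). Socs6 was likewise lower in each (10.98, 14.5 and 8.63 CPM, against 40.8, 23.2 and 25.5 CPM in wild type; -1.39, SE 0.63). Without IPMK cKO replicate 1 the estimates were -0.85 for Socs2 and -1.38 for Socs6. Of 15 tested inhibitors of this kind 0 were called, with 6 estimates above 0 and 9 below and a median of -0.17. In every IPMK cKO library 2 were lower and 0 were higher, beside 5.66% and 4.74% of all genes. Pias2 had -1.16 (SE 0.91) and Socs1 -0.87 (SE 0.78), with overlapping groups.

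**Figure D3:**
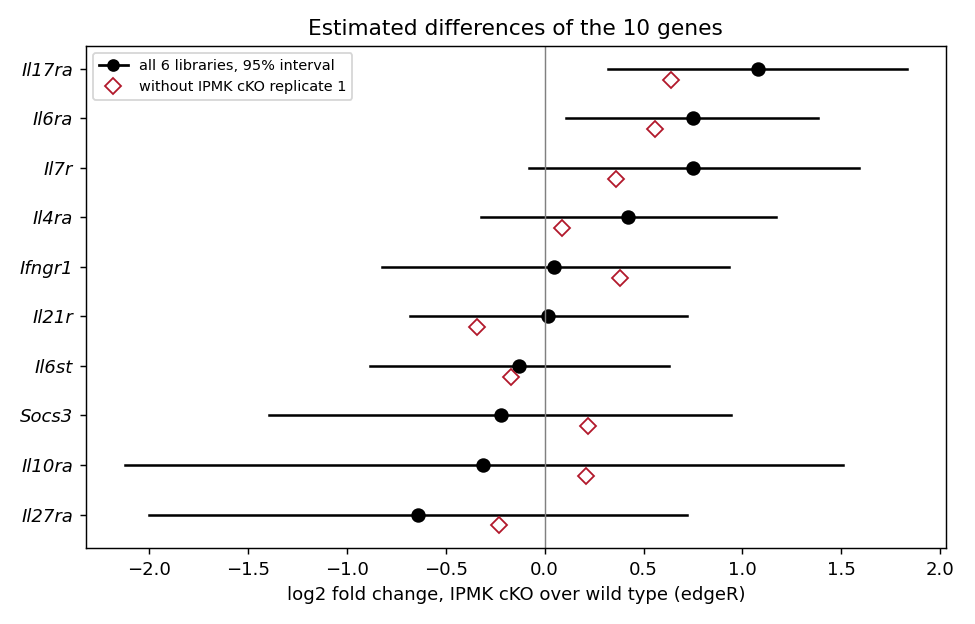
Log2 fold change of each gene, IPMK cKO over wild type, from edgeR with all 6 libraries (filled circles, with 95% intervals) and without IPMK cKO replicate 1 (open diamonds). The intervals of Il17ra and Il6ra lie above 0, and leaving out the library puts Il10ra and Socs3 above 0 and Il21r below 0.

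Of the JAK kinases and STAT factors that these receptors use, 10 are described here and all 10 were tested. None was called, with 4 estimates above 0, 6 below and a median of -0.05. Stat3 had 263, 501 and 509 CPM in IPMK cKO, against 462, 434 and 533 CPM in wild type. Only replicate 1 of IPMK cKO lay outside the wild type range on the low side. Stat4, which mediates interleukin-12 signals, had -0.81 (SE 0.48), Jak1 0.44 (SE 0.28) and Stat5a 0.45 (SE 0.36). Stat6, the factor of interleukin-4, was higher in every IPMK cKO library (0.37, SE 0.29). It had 213, 148 and 145 CPM, against 130, 122 and 139 CPM in wild type. Stat5b was lower in each (-0.20, SE 0.28), with 103, 125.3 and 113 CPM, against 126.1, 125.9 and 139 CPM in wild type. Its margin between the groups was 125.3 against 125.9 CPM. Such separation was seen in 4.74% (higher) and 5.66% (lower) of all genes.

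Of 14 tested genes known as STAT3 targets, 6 were lower in every IPMK cKO library and 0 were higher, beside 5.66% and 4.74% of all genes. None was called, the median log2 fold change was -0.81, and 11 estimates were below 0. Without IPMK cKO replicate 1 there were 6 lower of 15 tested, beside 10% of all genes, and the median was -0.83. The transcription factor Maf had 170, 258 and 214 CPM in IPMK cKO, against 440, 519 and 293 CPM in wild type (-0.96, SE 0.31). Junb had 85.6, 190 and 107 CPM, against 310, 222 and 197 CPM in wild type (-0.93, SE 0.36). Ahr, the aryl hydrocarbon receptor, had 0.704, 6.79 and 7.81 CPM, against 25.6, 26.8 and 19.4 CPM in wild type (-2.22, SE 0.95). Batf (-0.74, SE 0.38), Prdm1 (-0.87, SE 0.47) and Nfil3 (-2.41, SE 1.76) were the others. Maf, Batf and Prdm1 are also genes of effector Treg and were known to be lower in these libraries when the list was made, so the count is not independent support. Pim1, Mcl1 and Bcl3 had estimates of -0.07 (SE 0.26), 0.07 (SE 0.29) and 0.18 (SE 0.40).

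**Figure D4:**
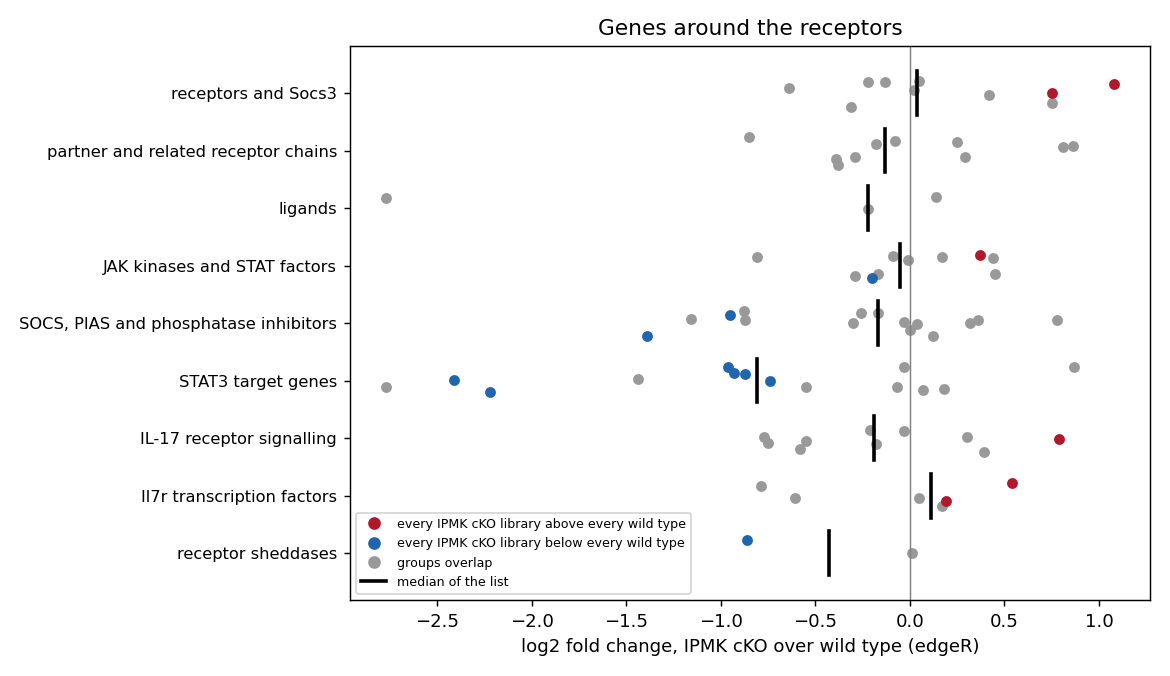
Log2 fold change of each tested gene in the 9 gene lists, IPMK cKO over wild type, coloured by whether the groups overlap, with a bar for the median of the list. The STAT3 target genes have 6 genes lower in every IPMK cKO library, beside 5.66% of all genes. Of these, Maf, Batf and Prdm1 were known to be lower when the list was made. The 9 receptor chains with Socs3 have 2 higher, beside 4.74% of all genes.

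Among 22 partner and related receptor chains, 10 were tested, none was called or separated the groups, and 6 had no count in any library. Besides Ifngr2 and Il2rg, the smallest p-values were those of Il11ra1 (-0.85, SE 0.89) and Crlf2, the receptor chain for thymic stromal lymphopoietin (0.25, SE 0.39). Ligand genes were mostly silent. Of 16, 3 were tested and 7 had no count, among them Il7, Il27, Il17a and Il17f. Ebi3, a subunit of interleukin-27 and interleukin-35, had 31.0, 16.3 and 34.1 CPM in IPMK cKO and 15.6, 24.3 and 33.9 CPM in wild type (0.14, SE 0.58). Il21 (-2.77, SE 2.45) and Osm (-0.22, SE 1.21) had overlapping groups. Il10 had 0 counts in each IPMK cKO library and 0, 56 and 154 counts in wild type replicates 1 to 3 (exact permutation p = 0.4). In bulk libraries fewer cells with a transcript and less of it per cell cannot be told apart.

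The spread between libraries differed by group. The SD of log2 CPM was larger in IPMK cKO than in wild type for 10 of the 10 genes, beside 71.5% of the 7831 genes with a mean of at least 10 CPM. The median SD of the 10 was 0.68 in IPMK cKO and 0.19 in wild type, beside 0.66 and 0.40 for all those genes. With the replicates numbered 1 left out of each group, 5 of the 10 had the larger spread in IPMK cKO, beside 59.6%. Wild type SDs ran from 0.06 for Il6st to 0.52 for Il10ra, and IPMK cKO SDs from 0.28 for Il6ra to 1.87 for Il10ra.

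In IPMK cKO replicate 1 the genes split. Il17ra, Il7r, Il6ra, Il4ra and Il21r were highest there of all libraries, by 0.67 to 1.6 log2 units above the median of the other 5. Il10ra, Socs3, Il27ra and Ifngr1 were lowest there, by -2.91, -2.11, -2.05 and -1.08, and Il6st was at -0.03. Across all genes with a mean of at least 10 CPM this library also moved with the GC content of the longest coding transcript. The median was -0.32 in the lowest of 5 equal bins by GC and 0.45 in the highest. Il7r, with 40.5% GC, lay in the lowest bin, and Socs3, with 58.7%, in the highest, so both lay on the other side of 0 from the median of their bin, as did Il6ra, Il10ra and Il27ra. Il17ra and Il21r (1.6 and 0.67, in a bin with a median of 0.19), Il4ra (0.76, in the highest bin), Il6st and Ifngr1 lay on the same side as their bin. The part of GC content in these values was not tested.

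**Figure D5:**
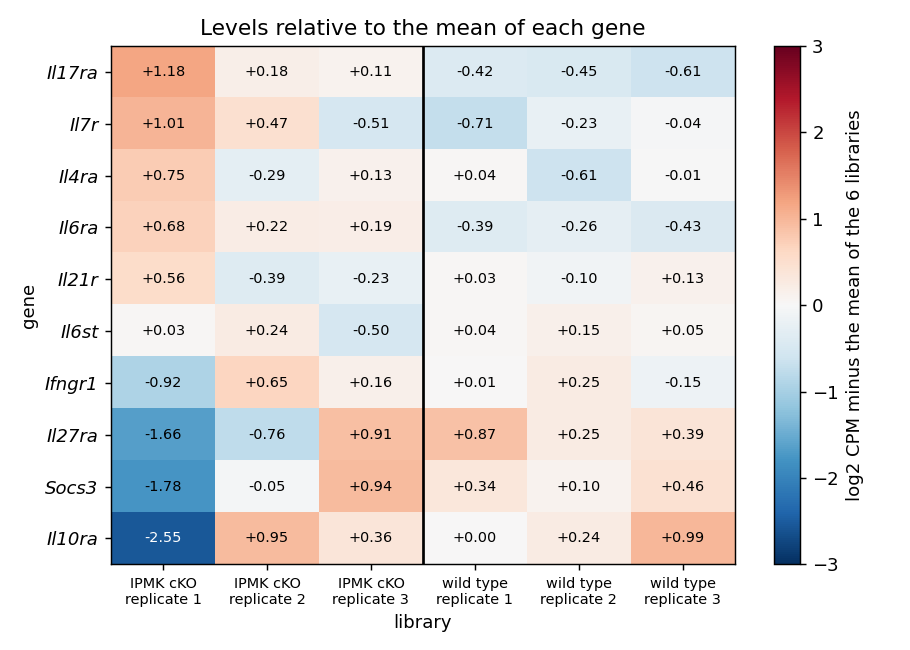
Log2 CPM of each gene minus its mean over the 6 libraries, with IPMK cKO libraries on the left and wild type libraries on the right of the line, ordered by IPMK cKO replicate 1. Il17ra is at 1.18 and Il10ra at -2.55 in that library, and wild type values lie between -0.71 and 0.99.

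By mean level in wild type the order was Il7r (227 CPM), Il21r (204), Il4ra (202), Socs3 (149), Il17ra (130), Il6ra (111), Ifngr1 (103), Il6st (75.5), Il27ra (54.5) and Il10ra (25.3 CPM). These CPM of 3′ tags were not divided by length, since the kit reads near 1 end of each transcript. Ranges of the 3 libraries did not overlap between Il17ra and Il6ra, Ifngr1 and Il6st, Il6st and Il27ra, or Il27ra and Il10ra, and overlapped between all other neighbours. In IPMK cKO all neighbouring pairs overlapped, and Il17ra stood next after Il7r.

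Genes with the most similar pattern over the 6 libraries were sought by the root mean square difference of centred log2 CPM, among 7494 genes. For Il6ra, whose own values lay 0.401 about their mean, they were the Ikaros family factor Ikzf3 (0.0738), Ttc3 (0.108) and the Schlafen gene Slfn1 (0.113). Ikzf3 had 95.5, 76.4 and 78.5 CPM in IPMK cKO and 48.6, 51.0 and 49.7 CPM in wild type. For Il7r (0.585 about its mean) they were Zcchc2 (0.111), Faim, an inhibitor of apoptosis (0.124), and the cohesin subunit Smc1a (0.149). For Il10ra (1.20) they were Lsm14a (0.207), the amino acid transporter Slc38a1 (0.233) and Eif1ad (0.245), all of them low in IPMK cKO replicate 1. These values rank likeness over 6 libraries and carry no test.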

How the data were processed

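Treg RNA was extracted with Trizol and made into Lexogen QuantSeq 3′ libraries, per the labels' protocols. Deposited were raw counts per gene symbol, 1 file for each of 6 libraries, per the file headers and the values. The submitters' processing notes name Bowtie2, edgeR, mm10 and hg19 without a role; for the counting program, annotation and strand setting no source used here gives one. Entries that share a symbol (79, for 35 symbols) were kept apart.

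Library sizes were scaled by TMM, low genes were removed by filterByExpr (minimum 10 counts), and 10475 genes were tested with glmQLFTest in edgeR 4.0.16 (R 4.3.3), with Benjamini-Hochberg adjustment and a threshold of 0.05. SEs are the estimate over the square root of F. Intervals are 95%. Single values and chain ratios were compared by exact permutation, two-sided. DESeq2 1.42.0, limma 3.58.1 (voom), other scalings and filters, a replicate block and left-out libraries were alternatives. On simulated counts with the dispersions of this comparison, edgeR recovered 0%, 30.0% and 59.5% of those changed 2-, 4- and 8-fold. Each run had 200 changed genes with a mean of at least 5 CPM, and 9825, 9774 and 9853 genes were tested. No 2-fold difference was thus detected in genes drawn this way. Recovery at the levels and spread of the 10 genes was not simulated. Depth was 7464546 to 8980395 counts with Rn45s included, and 5287300 to 7130660 without it. Floors of 3 counts cover counting error only.

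The members, gene lists and tests were chosen with earlier results of these data known. The text names all 10 members, Ipmk, up to 4 tested genes a list by smallest p, and for Il7r, Il6ra and Il10ra the 3 genes nearest in pattern with a mean of at least 10 CPM (log2 of CPM plus 0.5). Partner chains, ligands, Stat3, Stat6, Stat5b, Ets1, Pim1, Mcl1, Bcl3, Batf, Prdm1, Nfil3, Ebi3 and the Treg markers were also named after their values were seen, as were the chain ratios. Markers of other cells are given as sums with the most abundant gene of 4 lists. Cd8b1, Cd79a, Itgam and some genes without a count are also named. Genes the naming rule takes beyond these are not printed. Some genes and 1 gene list are not reported here.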

Additional observations from a re-analysis of the deposited data

How the results depend on the processing

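None of the 10 genes passed the threshold in any of 17 alternatives, where the smallest adjusted p was 0.5555 (DESeq2, Il17ra). Il17ra (0.64 to 1.26), Il6ra (0.53 to 0.83), Il7r (0.20 to 1.07), Il4ra (0.09 to 0.60) and Il27ra (-1.70 to -0.02) kept their direction throughout. Genes called lower numbered 3 with DESeq2 (S100a6, S100a11 and Smpdl3b), 1 with both libraries numbered 1 left out, and 0 to 1 when each library was left out (Gdpd3 without IPMK cKO replicate 1); genes called higher numbered 0 throughout.

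Il21r was -0.06 with limma-voom and with upper quartile factors, -0.23 with total counts and -0.33 with both libraries numbered 1 left out. Ifngr1 was -0.04 with limma-voom and -0.09 with total counts. Total counts put the median of all genes at -0.17, against 0.03 with TMM. With both libraries numbered 1 left out Il10ra was 0.02 and Socs3 0.24. When each library was left out in turn, the estimates ran from -0.33 to 0.06 for Il6st, -0.34 to 0.16 for Il21r, -0.96 to 0.21 for Il10ra, -0.35 to 0.38 for Ifngr1 and -0.98 to 0.22 for Socs3. Of the 10 genes, 0 to 2 were lower in every remaining IPMK cKO library in these fits, beside 8.9% to 13.9% of all genes. They were Il21r without IPMK cKO replicate 1, Il6st without replicate 2, and Il27ra and Socs3 without replicate 3. Those higher in each numbered 2 to 3, beside 7% to 10.9% of all genes, with Il6ra and Il17ra among them in every fit. With both libraries numbered 1 left out 1 of the 10 was lower, for which no share of all genes is given. Apart from the left-out libraries, the cause of these moves was not tested.

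The labels do not say whether the replicate numbers pair the libraries, and the main fit did not use them as pairs. Deviations of same-numbered libraries correlated at 0.0359, 0.0799 and 0.0311 across genes, each the highest for its library. This is a weak hint of pairing from the data and not from the design. With the replicate block 0 genes were called, Il21r was -0.05, Ifngr1 -0.07, Il10ra -0.84, Socs3 -0.56 and Il27ra -1.02. With limma-voom Il10ra was -0.75, Socs3 -0.53 and Il27ra -0.90.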
